A study of Rattus norvegicus with 12 samples.

Results

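The spots compared here had the most pericentral and the most periportal expression, by a score of 8 genes, in 2 Visium sections of healthy rat liver. Visium captures polyadenylated RNA from a tissue section on an array of barcoded spots, each about the width of a few hepatocytes, so that 1 spot mixes hepatocytes with the sinusoidal cells around them. Spots with at least 5000 UMIs (unique molecular identifiers, each counted once per captured RNA molecule) were kept, and each was given a score, the log2 of the summed UMIs of Cyp2e1, Oat and Sult1e1 plus 1, over the summed UMIs of Sds, Hal, Ass1, Arg1 and Gls2 plus 1. In each section the spots were split by this score into 5 quintiles. The sections are called A and B. The top quintile is called pericentral and the bottom one periportal, names that rest on this score, since the position of a spot relative to the veins was not analysed here. Section A gave 452 pericentral and 452 periportal spots out of 2260 kept of 2437, and section B gave 439 and 440 out of 2196 kept of 2404. The 2 ends together held 1783 of the 4841 spots. The spots were thus chosen by the measured levels of these 8 genes, which are described below without being findings.

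Both sections came from healthy male rats of the outbred Wistar strain, frozen in embedding medium and cut as cryosections, from 2 rats by the study's methods, though the labels do not tie a section to a rat. The age of the Wistar rats is not given in the sources used here, and the DA and LEW rats were age matched by the study's methods. No animal was treated, and the contrast is the one drawn by the score within each section. The series also holds 4 libraries of single nuclei from healthy male rats, 2 of the inbred strain DA and 2 of the inbred strain LEW, in which the same score was applied as a description in other animals, and 6 libraries of cells that are not used here. With 2 sections, and with spots that are not replicates, no test was made. A gene was called where its level differed by at least 1.5-fold in the same direction in both sections, and intervals are exact 95% intervals of the ratio of 2 counts, which cover counting error only.

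Blood enters the lobule at the portal tracts, rich in nutrients and, from the hepatic artery, in oxygen, and leaves it at the central vein. Hepatocytes along this path divide their labour. Those near the portal tract are known for gluconeogenesis, urea synthesis and the breakdown of amino acids, while those near the central vein are known for glutamine synthesis, bile acid synthesis and the oxidation of drugs by cytochrome P450 enzymes. WNT ligands from the central vein endothelium act through beta-catenin and TCF factors to switch on many genes of the pericentral hepatocytes. Kupffer cells, the resident macrophages of the liver, sit in the sinusoids.

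The kept spots had a median of 14388 UMIs in A and 14849.5 in B. The median UMIs of the periportal and the pericentral quintile were 15101.5 and 14496.5 in A, and 16075.5 and 13845 in B, so that the pericentral spots were the shallower ones in both. The median share of mitochondrially encoded UMIs fell from 3.33% to 2.87% in A and from 2.64% to 2.34% in B between these ends. With quintiles drawn within 4 strata of depth, 67 pericentral and 82 periportal genes were called, and with totals without mitochondrial and globin genes 66 and 86, against the 66 and 84 described below. Of the genes called within strata, 64 and 78 were among those described below. With spots thinned to 5000 UMIs, 55 and 62 were called, of which 41 and 48 were among them. The sections shared 1793 barcodes, which mark positions on the array. At the 1568 of them kept in both, the scores had a correlation of 0.0353.

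The median score rose from -1.18 over -0.80, -0.47 and -0.08 to 0.54 across the quintiles of A, and from -1.16 over -0.74, -0.42 and 0.04 to 0.73 in B. The limits fell in a continuous range. In section A the last spot inside the periportal quintile and the first outside it both scored -0.972, and the pericentral limit lay between 0.182 outside and 0.186 inside. In section B the corresponding scores were -0.932 and -0.930 at the periportal limit, and 0.328 on both sides of the pericentral one. Among the genes that set the score, the level of Oat, an enzyme of ornithine breakdown, went from 2.21 to 7.24 UMIs per 10000 in A and from 2.05 to 7.93 in B, and that of Cyp2e1, a P450 enzyme that oxidises ethanol, from 9.73 to 22.4 and from 10.4 to 25.6. Those of Sds and Hal, which break down serine and histidine, went from 1.34 to 0.483 and from 2.43 to 1.01 in A, and from 1.53 to 0.505 and from 2.53 to 0.991 in B.

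Leaving out these 8 genes, 5166 genes reached 0.1 UMI per 10000 over the kept spots of each section and were compared. Of these, 66 were higher at the pericentral end in both sections (1.28% of the genes compared) and 84 at the periportal end (1.63%). Within A alone 93 genes passed the fold upward and 104 downward, and within B alone 121 and 135. A single gene passed it in opposite directions. For 94.2% of the genes the 2 ends lay within 1.5-fold of each other in both sections, and the median log2 fold was 0.01 in A and 0.02 in B, so that most of the genes compared differed little between the ends. Across the 5166 genes, which are not independent, the log2 folds of the sections had a Pearson correlation of 0.715, and 68.0% had the same sign. The genes nearest to the limit were Pdlim1, Igfbp3 and Mgst2 inside and Avpr1a, Csrp2 and Lyve1 outside on the pericentral side, with a fold in A from 1.51 to 1.52 inside and of 1.49 outside, and Chac1, Cfp and Ifitm1 inside and Slc38a4, Inhbe and Lgmn outside on the periportal side.

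**Figure D1:**
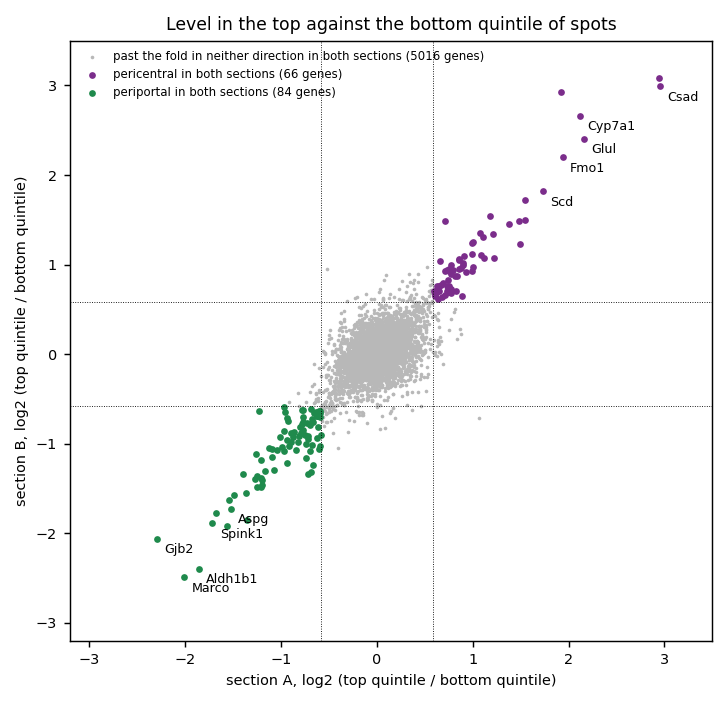
Log2 ratio of the level in the top over the bottom quintile of spots in section A (horizontal axis) and section B (vertical axis) for the 5166 genes compared. Each point is a gene, dotted lines mark 1.5-fold, and the 66 pericentral and 84 periportal genes lie in the upper right and lower left corners, with Csad, Cyp7a1 and Glul at one end and Gjb2, Marco and Aldh1b1 at the other.

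Genes are ordered by the smaller of their log2 folds in A and B, and the 12 first at each end are called leading. By this order the first pericentral gene was Csad, the decarboxylase that makes hypotaurine, the precursor of taurine, from cysteine sulfinate. Its level across the quintiles, from the periportal to the pericentral end, was 0.235, 0.411, 0.716, 1.24 and 1.82 UMIs per 10000 in A and 0.174, 0.293, 0.491, 0.885 and 1.38 in B. The ratio of the ends was 7.75 (6.59 to 9.17) in A and 7.94 (6.58 to 9.64) in B, and the level climbed at every step. At least 1 Csad UMI was found in 87.4% of the pericentral and 28.8% of the periportal spots of A, and in 82.0% and 23.6% of those of B.

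Glul encodes glutamine synthetase, the textbook mark of the hepatocytes next to the central vein. Its level was 0.610, 0.595, 0.602, 0.826 and 2.73 UMIs per 10000 in A and 0.547, 0.475, 0.554, 0.701 and 2.89 in B, which gave ratios of 4.48 (4.03 to 4.99) and 5.29 (4.74 to 5.91). The first 3 quintiles hardly differed, and the pericentral quintile stood apart. Cyp7a1, the rate-limiting enzyme of bile acid synthesis, also rose most in the last step but climbed before it, with 0.247, 0.263, 0.317, 0.392 and 1.07 in A and 0.197, 0.282, 0.287, 0.422 and 1.24 in B, and ratios of 4.34 (3.67 to 5.15) and 6.32 (5.28 to 7.60).

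Fmo1, a flavin monooxygenase that oxidises drugs, instead climbed evenly, from 0.374 over 0.461, 0.748 and 1.08 to 1.44 in A and from 0.311 over 0.436, 0.702 and 1.05 to 1.43 in B. Scd, the desaturase that makes monounsaturated fatty acids, was the most abundant of the 12 leading genes, at 5.18, 7.44, 11.0, 14.6 and 17.2 UMIs per 10000 in A and 4.37, 6.42, 8.56, 13.3 and 15.4 in B, a ratio of 3.32 (3.20 to 3.45) and 3.52 (3.39 to 3.67). The other leading genes were the elastase Cela1 (log2 1.55 in A and 1.72 in B), Mup4 of the major urinary proteins (1.54 and 1.49), the methyltransferase Inmt (1.48 and 1.48), the cadherin Cdh17 (1.38 and 1.45), and the genes listed as AABR07048463.1 (log2 2.94 and 3.09) and AABR07004572.1 (log2 1.92 and 2.93). The aldo-keto reductase Akr1c2 was 2.82 and 2.34 times higher. In section B and in the mean of both sections AABR07048463.1 exceeded Csad, on 30 periportal and 226 pericentral UMIs in B. In A it had 41 and 305. Its level lay below 0.1 UMI per 10000 from the periportal to the middle quintile in both sections. AABR07004572.1 also rested on few periportal molecules, with 62 periportal and 227 pericentral UMIs in A and 34 and 230 in B. Mup4 and Akr1c2 belong to families of near-identical genes, so that reads may have been split among copies and their own levels are uncertain. Of the 150 called genes, 13 are listed under clone or LOC names, and none of their identifiers matched a RefSeq symbol.

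At the periportal end the first gene by the same order was Gjb2, which encodes the gap junction protein connexin 26. Its level fell from 0.509 over 0.389, 0.246 and 0.163 to 0.104 in A and from 0.546 over 0.399, 0.304 and 0.167 to 0.131 in B, so that the periportal level was 4.90 times (3.79 to 6.41) and 4.18 times (3.30 to 5.36) the pericentral one. In section B both Marco and Aldh1b1 differed more than Gjb2. Aldh1b1, a mitochondrial aldehyde dehydrogenase, was 3.62 times (2.88 to 4.59) and 5.28 times (4.14 to 6.79) higher, with 359 periportal against 96 pericentral UMIs in A and 464 against 78 in B. Aspg, an asparaginase, fell steadily from 1.18 over 1.02, 0.856 and 0.614 to 0.410 in A and from 1.15 over 0.978, 0.774 and 0.537 to 0.347 in B. The steroid 5-alpha-reductase Srd5a1 took the same course, from 0.878 to 0.313 in A and from 0.947 to 0.319 in B.

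The remaining leading periportal genes were Spink1, a trypsin inhibitor (log2 -1.71 in A and -1.89 in B), the prolactin receptor Prlr (-1.68 and -1.77), Wfdc21 (-1.56 and -1.93), the fatty acid hydroxylase Cyp4a8 (-1.53 and -1.63), Cryl1 (-1.36 and -1.56), LOC100911558 (-1.36 and -1.85) and 2 macrophage genes, the scavenger receptor Marco (-2.00 and -2.49) and Cd5l (-1.39 and -1.34). Prlr rested on few molecules, with 129 periportal and 39 pericentral UMIs in A and 150 and 39 in B.

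**Figure D2:**
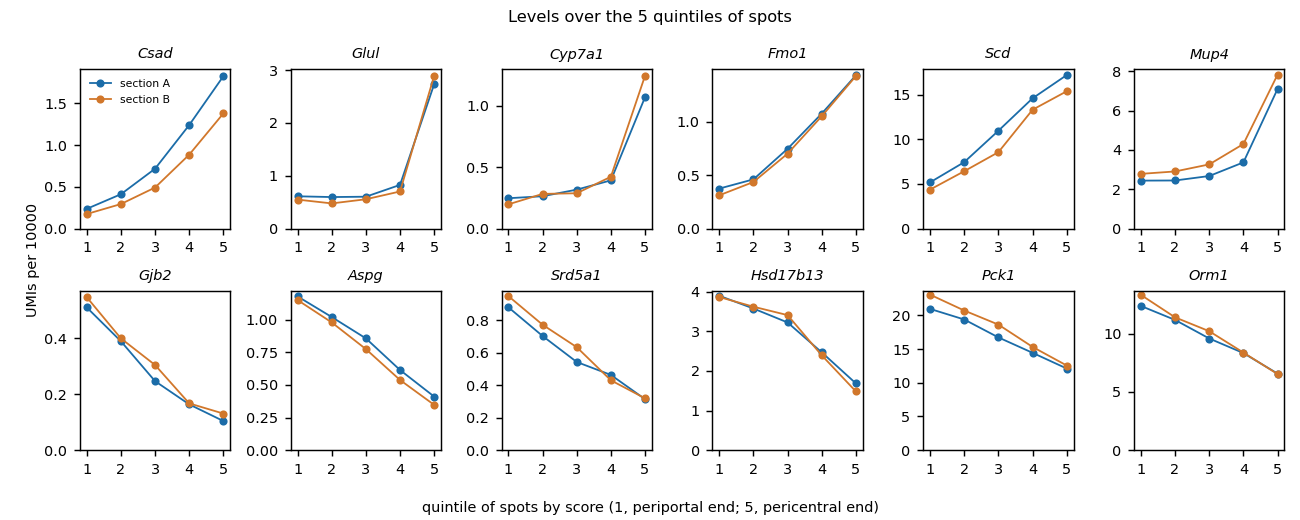
Level in UMIs per 10000 (vertical axis, from 0) over the 5 quintiles of spots by score (horizontal axis, 1 periportal, 5 pericentral) of 6 pericentral and 6 periportal genes in section A (blue) and section B (orange), with 1 point per quintile and section and no error bar. Glul stays low until the pericentral quintile, Cyp7a1 and Mup4 rise most in the last step, and Csad, Fmo1 and Scd climb over all quintiles, as Aspg and Srd5a1 fall over all of them.

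The promoters of 4 leading genes are shown as examples that hold CTTTGA, the core of the site bound by TCF factors of the WNT pathway. The promoter of Srd5a1, a leading periportal gene, also held it and is not shown. Each runs from 250 bases before to 50 bases after the gene's RefSeq start on the build GRCr8, 5′ to 3′ on the gene's strand, and capitals mark CTTTGA or its reverse complement TCAAAG. Glul lies on the plus strand at chr13:68519250-68519549, Cela1 on the minus strand at chr7:133665012-133665311, Gjb2 on the minus strand at chr15:35381904-35382203 and Aspg on the plus strand at chr6:136997773-136998072.
Glul: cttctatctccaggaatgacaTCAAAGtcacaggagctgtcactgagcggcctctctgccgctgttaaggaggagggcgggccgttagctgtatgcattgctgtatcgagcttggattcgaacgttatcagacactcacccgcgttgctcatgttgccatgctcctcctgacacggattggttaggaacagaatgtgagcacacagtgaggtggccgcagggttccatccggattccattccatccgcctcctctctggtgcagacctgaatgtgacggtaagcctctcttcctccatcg
Cela1: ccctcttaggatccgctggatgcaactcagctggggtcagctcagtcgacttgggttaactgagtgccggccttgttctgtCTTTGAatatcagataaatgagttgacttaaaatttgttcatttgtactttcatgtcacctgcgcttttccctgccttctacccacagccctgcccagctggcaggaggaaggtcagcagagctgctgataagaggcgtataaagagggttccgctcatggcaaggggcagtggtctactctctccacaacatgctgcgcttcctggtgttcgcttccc
Gjb2: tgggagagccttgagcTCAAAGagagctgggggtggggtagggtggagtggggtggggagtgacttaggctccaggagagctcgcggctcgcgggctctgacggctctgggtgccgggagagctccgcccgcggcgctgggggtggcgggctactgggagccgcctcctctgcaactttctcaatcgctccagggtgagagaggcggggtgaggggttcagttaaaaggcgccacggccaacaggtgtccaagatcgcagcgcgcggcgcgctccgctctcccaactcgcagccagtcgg
Aspg: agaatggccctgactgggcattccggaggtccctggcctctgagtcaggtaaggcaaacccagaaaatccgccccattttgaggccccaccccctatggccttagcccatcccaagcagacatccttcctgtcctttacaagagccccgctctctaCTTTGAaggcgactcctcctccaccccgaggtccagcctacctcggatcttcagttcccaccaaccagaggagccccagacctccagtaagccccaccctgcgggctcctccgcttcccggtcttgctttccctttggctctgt
Glul and Cela1 were pericentral, Gjb2 and Aspg periportal. A promoter was found for 43 of the 66 pericentral genes, of which 8 (18.6%) held the letters on either strand, for 62 of the 84 periportal genes, of which 8 (12.9%) held them, and for 4064 of the 5166 genes compared, of which 496 (12.2%) held them. A match of 6 letters describes the sequence and does not show a bound site.

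The shape of the change over the quintiles differed among the pericentral genes, and it was examined after the levels had been seen, with each step given as a share of the log2 difference between the ends. In 36 of the 66 the level rose at every step in both sections. In 15 over 50% of the log2 difference fell in the last step in both sections, with 79.8% and 85.1% for Glul, 68.4% and 58.7% for Cyp7a1, 69.8% and 57.9% for Mup4, and 68.7% and 74.1% for Cyp2c6v1. In 11 less than 25% did, with 13.7% and 11.5% for Scd, 18.9% and 21.4% for Csad, 21.4% and 20.1% for Fmo1, and 14.9% and 11.3% for Cyp2c11. The lipid droplet proteins Pnpla3 and Pnpla5 were highest in the fourth quintile of both sections, at 0.763 and 0.748 for Pnpla3 against 0.694 and 0.578 in the pericentral quintile. Of the 84 periportal genes, 43 fell at every step in both sections. The step nearest to the portal end took over 50% of the log2 difference in 3 of them and under 25% in 31. Its median share was 23.0%, against 37.2% for the last step of the pericentral genes. The median score itself moved less in the first step, from -1.18 to -0.80 in A and -1.16 to -0.74 in B. In the last step it went from -0.08 to 0.54 and from 0.04 to 0.73. These shares thus do not compare steps of equal size, and the part of this spacing in them was not tested.

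Markers that were not part of the score were set beside the names of the quintiles. They were chosen with earlier results of these data known, so they are not an independent check. Of the 8 pericentral markers, the 3 that could be compared, Glul, Cyp7a1 and Cyp1a2, were all higher at the pericentral end, while Lgr5 had 0 UMIs in both ends of both sections and Tbx3, Rhbg, Axin2 and Slc1a2 lay below the floor of the comparison. Of the 8 periportal markers, Aldh1b1, Hsd17b13 and Pck1 passed the fold. The other 5, Alb, Cps1, Ctsc, Cyp2f4 and Sdsl, were lower at the pericentral end in both sections but within 1.5-fold. For Cyp2f4 and Sdsl the interval included equal levels in both sections. Alb, the albumin gene and by far the most abundant of these 5, had a log2 fold of -0.30 in A and -0.34 in B.

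The counts of called members in the gene lists that follow stand beside 1.28% pericentral and 1.63% periportal genes among all those compared. The lists too were chosen with earlier results of these data known. In the list of glutamine and WNT target genes, 3 of 12 could be compared, and all 3 were pericentral, namely Glul, Gulo, which makes ascorbate, and Lhpp (median log2 0.86 in A and 1.06 in B, beside 0.01 and 0.02 over all genes). The other 9 lay below the floor. Among them Slc13a3, a dicarboxylate carrier, had 13 periportal and 97 pericentral UMIs in A and 21 and 110 in B. Rhbg, an ammonium transporter, had 10 and 62, and 14 and 58. Axin2, the feedback inhibitor of WNT signalling, had 33 and 73, and 33 and 93, and was found in 14.2% of the pericentral and 6.86% of the periportal spots of A and in 18.5% and 7.05% of those of B. All 3 leaned the same way in both sections, on few molecules.

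Cytochrome P450 enzymes and the receptors that sense drugs were split. Of 28 genes compared, 7 were pericentral and 2 periportal, beside 1.28% and 1.63% of all genes compared, and the median log2 was 0.09 in A and 0.11 in B. The receptors Ahr, which senses dioxin-like compounds, and Nr1i3, also known as CAR, were both higher at the pericentral end, Ahr from 0.211 to 0.479 UMIs per 10000 in A and from 0.154 to 0.449 in B, and Nr1i3 from 0.279 to 0.458 and from 0.190 to 0.533. The enzyme Cyp1a2, which the Ahr protein is known to induce, went from 6.14 to 10.5 and from 6.03 to 12.0. The other 4 pericentral members were Cyp2c12, Cyp2c22, Cyp2c11 and Cyp2c6v1 of the Cyp2c family, whose members are so alike that reads may be shared. Not all of the family were higher there. Cyp2c13 had a log2 fold of -0.19 and -0.20, and Cyp2c23 of 0.04 and 0.11. Below the floor, Cyp2c7 had 123 periportal and 48 pericentral UMIs in A and 91 and 39 in B. Cyp2c24 had 14 and 4, and 14 and 10. Cyp4a2 and Cyp4a8, which hydroxylate fatty acids, went the other way, Cyp4a2 from 0.519 to 0.218 and from 0.670 to 0.239. The receptor Nr1i2, known as PXR, did not follow Nr1i3, with a log2 fold of -0.26 in A and -0.33 in B.

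Of 27 genes of phase II conjugation, which couples drugs to polar groups, 2 were pericentral, Gsta3 and Ugt1a5, and 1 periportal, the sulfotransferase Sult2a6, at 6.96 against 3.27 UMIs per 10000 in A and 7.14 against 3.43 in B. The median log2 of the list was 0.10 and 0.15. In both sections 18 of its genes were higher and 6 lower at the pericentral end. Of all genes compared, 68.0% had the same sign in both sections, at either end. That share stands beside the sum of the 18 and the 6, and the share of all genes at each end alone is not given. Most of the 18 lay within the fold, such as Gstm1 (0.39 and 0.44) and the epoxide hydrolase Ephx1 (0.35 and 0.38). For some, such as Gstm4, the interval included equal levels in both sections. The quinone reductase Nqo1 passed the fold in B alone (0.47 and 0.64).

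Genes of bile acid synthesis were called at both ends. Of 19 genes compared, 4 were pericentral and 2 periportal, beside 1.28% and 1.63% of all genes compared. Besides Cyp7a1, which starts the classical route, these were Slc27a5, which activates bile acids for conjugation (6.51 to 12.1 UMIs per 10000 in A and 6.11 to 12.2 in B), Cyp27a1 (log2 0.74 and 0.69) and Hsd3b7 (log2 0.62 and 0.68). The 2 periportal members were Cyp7b1, a hydroxylase of the alternative route (0.536 to 0.233 and 0.520 to 0.185), and Nr0b2, known as SHP, a receptor that represses bile acid synthesis (0.600 to 0.379 and 0.566 to 0.336). Cyp27a1, which also belongs to the alternative route, thus stood at the other end from Cyp7b1. Cyp8b1, which makes cholic acid, had a log2 fold of -0.27 in both sections, and the uptake carriers Slco1a4 (0.55 and 0.71) and Slco1b2 (0.44 and 0.58) did not pass the fold in both. The median log2 of the list was 0.16 and 0.09.

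The list of the urea cycle and ammonia, of which Ass1 and Arg1 of the cycle and the glutaminase Gls2 had been used in the score, gave no call among the 6 other genes compared. Cps1, the first enzyme of the cycle, had a log2 fold of -0.17 in A and -0.20 in B, and Otc of -0.24 in both, while Glud1, the glutamate dehydrogenase, leaned to the pericentral end with 0.41 and 0.44. Of 33 genes of amino acid catabolism, 4 were periportal, Amdhd1 of the histidine pathway, Agxt of glyoxylate, Gldc of glycine and Tdo2 of tryptophan breakdown, and 1, Csad, was pericentral. Agxt went from 1.65 to 0.903 UMIs per 10000 in A and from 1.70 to 0.895 in B. Of the enzymes of tyrosine breakdown, Tat, the first, leaned to the periportal end (log2 -0.54 and -0.63), and Hgd (0.27 and 0.28) and Hpd (0.20 and 0.21) weakly to the other. The median of the list was -0.20 and -0.11. Of 11 genes of gluconeogenesis and fasting, 1 was called, Pck1, the enzyme that commits oxaloacetate to glucose, at 21.0 against 12.1 in A and 23.1 against 12.6 in B. The median was -0.19 and -0.18, with 8 lower and 2 higher at the pericentral end in both sections. Of all genes compared, 68.0% had the same sign in both sections, at either end, a share that stands beside the sum of the 8 and the 2. Fbp1 (-0.42 and -0.44) leaned to the periportal end like Pck1, as did Tat, which is also in this list.

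Of 16 genes of glycolysis and lipogenesis, Scd and Pnpla3 were pericentral and none periportal, with a median of 0.11 and 0.21. Pklr, the pyruvate kinase of the liver, had 0.42 and 0.48. Fasn, which makes the fatty acid chains that Scd desaturates, and Acly differed little, with 0.16 and 0.20 for Fasn and 0.24 and 0.21 for Acly. None of 21 genes of fatty acid oxidation and ketogenesis was called at either end, and the median was -0.09 and -0.10. In both sections 14 were lower and 4 higher at the pericentral end. Of all genes compared, 68.0% had the same sign in both sections, at either end, a share that stands beside the sum of the 14 and the 4. The fatty acid binding protein Fabp1 had -0.48 and -0.49, and the carnitine transferase Cpt1a -0.32 and -0.34. None of 21 genes of cholesterol synthesis and uptake was called, and Insig1 came nearest with -0.56 and -0.63. The list of apolipoproteins also holds Lipc, Lcat, Mttp and Pltp, and has 19 entries of 18 symbols since Apoc1 is listed under 2 identifiers. In it Apoa2 was pericentral, at 31.9 against 51.4 UMIs per 10000 in A and 27.9 against 48.4 in B. Apoa5 (-0.48 and -0.53) and Apoa1 (-0.37 and -0.42) leaned to the periportal end.

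Of 46 plasma proteins, 3 were periportal, Spink1l, the acute phase protein Orm1, and Hamp, the hormone hepcidin that limits iron uptake, beside 1.63% of all genes compared, and none was pericentral. Hamp went from 12.6 over 12.3, 11.3 and 9.99 to 7.63 UMIs per 10000 in A and from 12.3 over 12.3, 11.6 and 9.44 to 7.19 in B. Orm1 went from 12.4 to 6.56 and from 13.3 to 6.53. Most secreted proteins differed little between the ends, with a median of -0.03 and -0.02. Of 17 entries for haem and iron, Hamp and the haem oxygenase Hmox1 were periportal, while the haem synthesis enzymes Alas1 (0.33 and 0.33), Alad (0.35 and 0.39) and Fech (0.44 and 0.31) leaned to the pericentral end within the fold. Of 8 genes of the insulin-like growth factor system, Igfbp3 was pericentral. Of 15 hepatocyte transcription factors compared, Nr1i3 was, and Hnf4a (-0.08 and -0.07) and Cebpa (-0.13 and -0.08) hardly differed. Of 16 genes of oxygen and stress response none was called, with Gpx1, a glutathione peroxidase, nearest at -0.56 and -0.60.

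**Figure D3:**
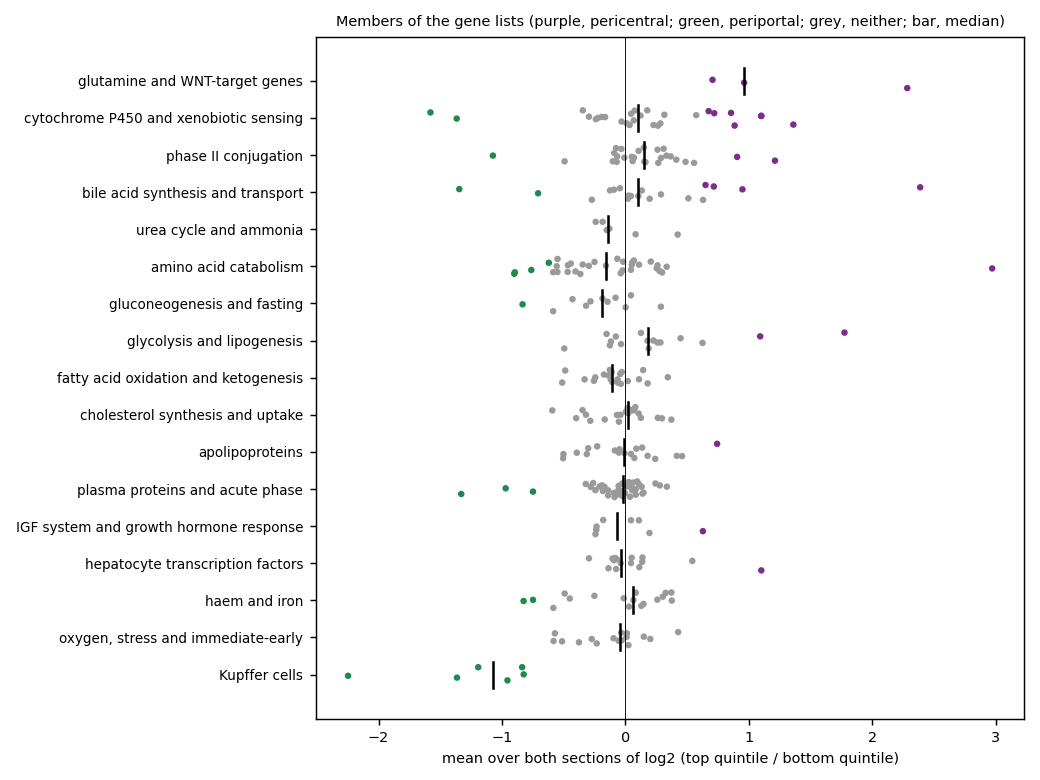
Mean over both sections of the log2 ratio of the top over the bottom quintile (horizontal axis) for the compared members of the 16 function lists and the Kupffer cell markers, 1 point per gene, with purple for genes pericentral and green for genes periportal in both sections, grey for the rest, and a bar at the median. Outside the glutamine and WNT target genes and the Kupffer cell markers the medians lie near 0, and the called genes are a minority of each list, at one end or both.

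All 6 Kupffer cell markers, chosen with earlier results of these data known, were periportal, which 1.63% of all genes compared were. Their summed level was 6.72, 4.85, 3.69, 3.09 and 2.76 UMIs per 10000 over the quintiles of A and 7.71, 5.79, 4.52, 3.30 and 3.13 in B. The steepest was Marco, at 1.95, 1.1, 0.689, 0.491 and 0.486 in A and 2.51, 1.32, 0.733, 0.487 and 0.446 in B, 4.01 times (3.56 to 4.54) and 5.62 times (4.96 to 6.39) higher at the periportal end. The Kupffer cell lectin Clec4f differed less, with a log2 fold of -0.92 and -0.75. Marco UMIs were found in 71.2% of the periportal and 51.5% of the pericentral spots of A and in 75.9% and 47.4% of those of B. In bulk spots, fewer Kupffer cells and less of these RNAs per cell cannot be told apart.

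Part of the other periportal genes were found in the same cells. In the 4 nuclei libraries, genes were called enriched in Kupffer cells where nuclei with at least 2 of the 6 markers held at least 4 times the level of the other nuclei in every library, a limit set after the data had been seen. Of 78 periportal genes other than the markers, 18 met it (23.1%), beside 0 of 66 pericentral genes and 0.718% of all compared genes measured. They included the complement chains C1qa, C1qb and C1qc, the ficolin Fcna, Cfp, the adaptor Tyrobp, the folate receptor Folr2, the galectin Lgals3, the oxidase subunit Cybb, Ccl6 and Hmox1. C1qb went from 1.57 to 0.864 UMIs per 10000 in A and from 1.81 to 0.993 in B. Hmox1, counted above with haem and iron, is thus also one of the genes enriched in Kupffer cell nuclei.

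Many markers of other cells lay below the floor, and these are given by their UMIs. Of the sinusoidal endothelial markers, 3 were compared and none was called, though Lyve1 (0.57 and 0.79), Fcgr2b (0.29 and 0.28) and Ramp2 (0.21 and 0.28) all leaned to the pericentral end, and their defining markers Stab2 and Clec4g were close to 0. All 6 markers of central vein endothelium lay below the floor. Among them the WNT enhancer Rspo3 had 17 periportal and 55 pericentral UMIs in A and 27 and 61 in B, while Thbd, thrombomodulin, had 42 and 31 in A and 61 and 46 in B. Wnt9b had at most 5 at either end and Wnt2 had 0. The interval of the ratio of the ends excluded equal levels for Rspo3 in both sections and included them for Thbd. Kit had 17 periportal and 21 pericentral UMIs in A and 17 and 26 in B. Its intervals also included equal levels. Of the markers of portal vessels 1 was compared, Ltbp4, and it was periportal. Below the floor, the ephrin Efnb2 had 25 periportal and 8 pericentral UMIs in A and 36 and 8 in B. The Notch ligand Dll4 had 37 and 29, and 45 and 21. Vwf, the von Willebrand factor, had 92 and 81, and 113 and 92. In both sections the level of Vwf was lower in every quintile between the ends than at either end. The cholangiocyte markers Krt19 and Sox9 had at most 1 UMI in either quintile, while Spp1, osteopontin, had 23 periportal and 5 pericentral UMIs in A and 41 and 3 in B. Epcam and Anxa4 were compared and not called, and Epcam UMIs were found in 22.3% of the periportal and 20.1% of the pericentral spots of A and in 28.9% and 19.6% of those of B. Of 4 mesenchymal markers compared, Ecm1 (0.75 and 0.95) and Col3a1 (0.78 and 0.72) were pericentral, and Lrat (0.41 and 0.54) and Dpt (-0.07 and 0.01) were not called. Dcn, the proteoglycan decorin, lay below the floor and leaned the other way, with 24 periportal and 8 pericentral UMIs in A and 34 and 12 in B, as did Tagln with 30 and 13, and 22 and 14. By the rule used for Kupffer cells, 3 of 64 pericentral genes, Aldh1a3, Igfbp3 and Serpine2, were enriched in mesenchymal nuclei (4.69%), beside 0 of 84 periportal genes and 0.582% of all compared genes measured. In nuclei with sinusoidal endothelial markers 1 pericentral gene, Islr (1.52%), and 1 periportal gene, Msr1 (1.19%), were enriched, beside 1.45% of all. Ltbp4, Ecm1 and Col3a1 can come from more than 1 cell type, and the part of each was not tested.

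**Figure D4:**
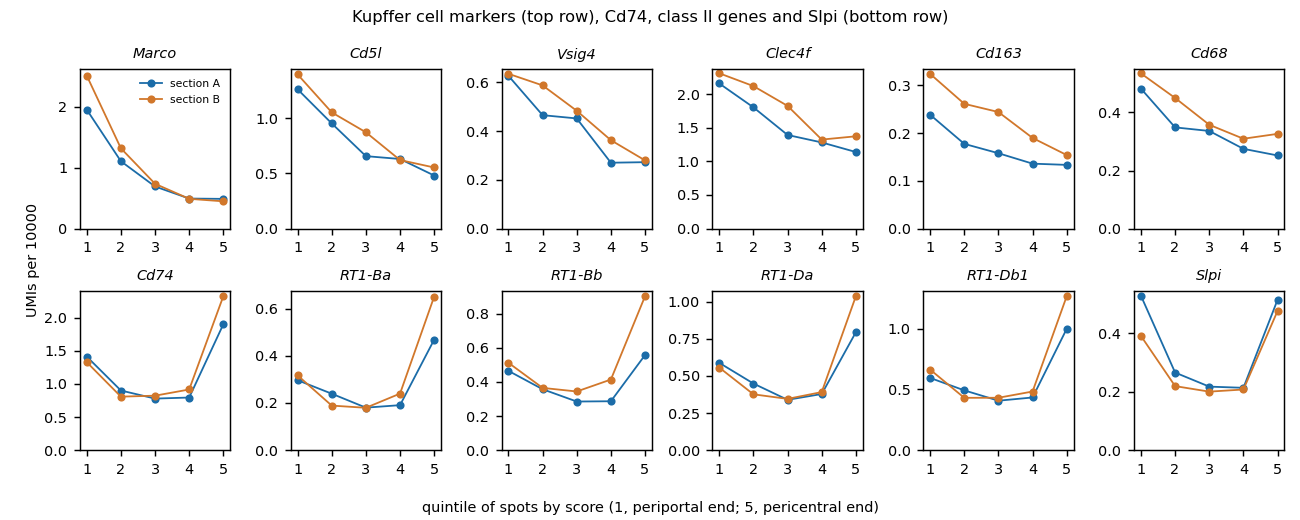
Level in UMIs per 10000 (vertical axis, from 0) over the 5 quintiles by score (horizontal axis, 1 periportal, 5 pericentral) of the 6 Kupffer cell markers (top row) and of 4 class II genes, Cd74 and Slpi (bottom row) in section A (blue) and section B (orange), without error bars. The Kupffer cell markers fall towards the pericentral end, and the genes of the bottom row are lower in quintiles 2 to 4 than at both ends of both sections.

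A further group of genes was lower in the middle quintile than at both ends. No gene was at least 25% higher in the middle quintile than at both ends in both sections (0% of 5166), and 11 lay there at or below 0.8 times the level of both ends (0.213%). These comprised the major histocompatibility complex class II genes RT1-Ba, RT1-Bb, RT1-Da and RT1-Db1 together with Cd74, the chain that guides class II molecules, and also Slpi, Mgp, Ccn1, Them6, Cavin1 and Smg5. In A, Them6 and Cavin1 were highest in the second quintile, and in B Smg5 was higher in the fourth quintile than at the pericentral end. Ccn1, Them6, Cavin1 and Smg5 rested on few molecules, such as 79 periportal and 74 pericentral UMIs for Them6 in A. Cd74 was at 1.41, 0.900, 0.778, 0.794 and 1.90 UMIs per 10000 over the quintiles of A and 1.33, 0.807, 0.822, 0.915 and 2.32 in B. The secreted protease inhibitor Slpi was at 0.529, 0.266, 0.218, 0.214 and 0.515 in A and 0.391, 0.219, 0.201, 0.208 and 0.477 in B, about as high at one end as at the other. The class II genes and Cd74 were higher at the pericentral than at the periportal end in both sections, and RT1-Ba and RT1-Db1 are counted among the 66 pericentral genes although they fell from the periportal to the middle quintile. Class II molecules mark cells that present antigens, and the general leukocyte marker Ptprc and the lymphocyte markers Cd3e and Cd79b lay below the floor. RT1 genes are alike in sequence, so that reads may be shared among them.

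Ribosomal protein genes showed no call among 75 entries compared, with a median of 0.04 and 0.03. Of 15 mitochondrially encoded entries, Mt-cyb alone was called, at 34.8 against 22.5 UMIs per 10000 in A and 26.9 against 17.2 in B. The globin entries, which mark blood, were higher at the pericentral end in all 4 cases without a call, with log2 folds from 0.07 to 0.53 in A and from 0.79 to 0.98 in B.

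The same score was then computed in nuclei of at least 1000 UMIs with at least 1 UMI of the 8 genes. This gave 2203 and 2531 scored nuclei in DA-1 and DA-2 and 5278 and 2480 in LEW-1 and LEW-2. The libraries shared from 8 to 24 barcodes in pairs. The median UMIs of the top and bottom quintile were 1259 and 2630 in DA-1, 1431.5 and 2824 in DA-2, 1429 and 1932 in LEW-1 and 2331 and 2222.5 in LEW-2, so that the bottom quintile was deeper in 3 of 4 libraries. The part of depth in the nuclei values was not tested. Of the 66 pericentral genes, 58 had at least 20 UMIs in each library, and 47 of these (81.0%) were higher in the top quintile of nuclei in all 4 libraries, as 20.9% of the 4726 measured genes were. Of the 84 periportal genes, 64 were measured, and 38 (59.4%) were lower in all 4, as 33.1% of the measured genes were.

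Some hepatocyte genes, picked after their values were seen, differed more widely in nuclei than in spots. The log2 fold of Glul was 4.74 in DA-1, 4.48 in DA-2, 2.98 in LEW-1 and 3.67 in LEW-2, and that of Cyp7a1 was 2.74, 5.06, 3.49 and 4.73. At the other end Aspg had -5.86, -5.88, -4.21 and -4.48, and Amdhd1 -4.57, -4.86, -3.72 and -3.92. Etnppl, a phospholyase of phosphoethanolamine, had -5.56, -3.62, -4.33 and -3.57, beside -0.72 and -1.34 in the sections. Aspg, Amdhd1 and Etnppl were lower in the top quintile in every library. Csad, the first gene of the order in the sections, was higher in all 4 libraries by a smaller step of 0.77, 2.44, 1.34 and 2.11.

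Other genes called in the sections did not separate the nuclei in the same way in every library. Srd5a1 had 0.72 and 0.47 in the DA libraries and -1.06 and -0.57 in the LEW ones, and Orm1 1.49 and 1.08 against -0.00 and -0.68. Cyp4a2 had 0.21 and 0.13 in the DA and -1.30 and -2.90 in the LEW libraries. With 2 rats a strain these splits were not tested. Marco had 0.31, -1.76, -1.93 and 0.01, and Cd5l -0.16, -0.56, -0.81 and -0.03, in nuclei. A nucleus belongs to 1 cell while a spot mixes cells, and the part of this in the values was not tested. Called genes that went the other way in all 4 libraries numbered 3 of the pericentral ones, Pnpla3, AC134224.3 and the poly(A)-binding protein Pabpc1, and 2 of the periportal ones, Ifitm1 and Mt-cyb.

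**Figure D5:**
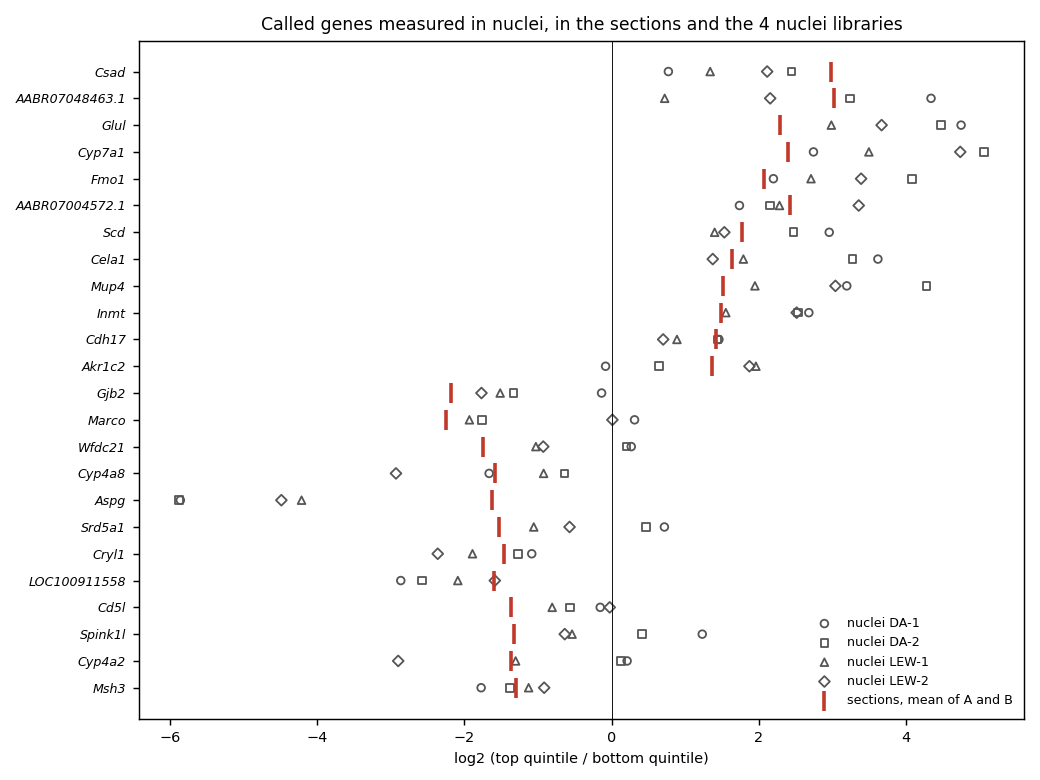
Log2 ratio of the top over the bottom quintile by score (horizontal axis) for the first 12 pericentral and the first 12 periportal genes, by the order above, among those measured in nuclei, with open symbols for the 4 nuclei libraries and a red bar for the mean of the 2 sections. The 12 pericentral genes lie right of 0 in every library except Akr1c2 in DA-1, and the periportal genes are spread on both sides of 0, with Aspg far to the left.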

How the data were processed

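The authors aligned the reads with Space Ranger 1.1.0 (sections) and Cell Ranger 3.1.0 (nuclei), per the labels, against a custom rat reference on the build Rnor_6.0, and deposited unnormalized counts of UMIs for every gene and barcode. Spot positions were not analysed here. From these deposited counts, spots with at least 5000 UMIs were scored and split into 5 quintiles in each section, UMIs were summed per quintile, and levels were given per 10000 of the summed UMIs. Genes with at least 0.1 UMI per 10000 over the kept spots of each section were compared, and a fold of at least 1.5 in the same direction in both sections made a call. Ratios carry exact 95% binomial intervals. Where a quintile held 0 UMIs no fold is given. For the score in nuclei, those with at least 1000 UMIs were used, and nuclei with tied scores at a limit stayed together. Genes with at least 20 UMIs over both quintiles in each library counted as measured. Nuclei were not clustered, and doublets were not removed. Kupffer cell, sinusoidal endothelial and mesenchymal nuclei were those with at least 2 of the markers of that list. They were taken from all nuclei of a library, without the limit on UMIs.

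The members, the 16 gene lists and the markers were chosen with earlier results of these data known. Genes named are the 12 per direction with the largest smaller log2 fold of the 2 sections, 2 to 4 members of each list, and those that went in opposite directions or were lower in the middle than at both ends. Other genes named, among them Pnpla5, Etnppl, Slc13a3 and Rspo3, and the shapes and nuclei enrichment, were chosen after their values were seen. The total was 34449562 UMIs for section A and 34827603 for section B, and from 8039397 to 15186970 in the nuclei libraries. The steps were checked on simulated spots. Python 3.11.15, numpy 2.4.6, scipy 1.17.1, pandas 2.3.3 and matplotlib 3.10.9 were used. Promoters come from RefSeq on GRCr8 and were matched by gene identifier. The 6 libraries of cells were not used. Alternatives changed the UMI limit, the quantile, the fold, the floor, the totals, the depth, the score and the summing, and left out each library.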

Additional observations from a re-analysis of the deposited data

Results flagged for a closer look

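A gene passed the fold in opposite directions in the 2 sections. AABR07060872.1 had a log2 fold of the pericentral over the periportal quintile of 1.07 in section A and -0.72 in section B. The difference between the sections was not tested.

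Pnpla3 was higher at the pericentral end of both sections, with a mean log2 fold of 1.09, and lower in the top quintile of nuclei in every library, with -3.67 in DA-1, -2.73 in DA-2, -1.07 in LEW-1 and -1.72 in LEW-2. Sections and nuclei came from different strains and assays, and the difference was not tested.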

How the results depend on the processing

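The 66 pericentral and 84 periportal genes became 20 and 27 with a fold of at least 2, 43 and 32 with a floor of 0.5 UMIs per 10000, and 136 and 172 with a floor of 0.02, in each case because the rule admits fewer or more genes. With 1 section left out in turn, the pericentral genes numbered 95 to 127 and the periportal genes 109 to 138, since a single section then decides. With spots thinned to 5000 UMIs they numbered 55 and 62, of which 41 and 48 were among the genes called. The 11 genes lower in the middle quintile than at both ends, a count added to the alternatives after the data were seen, became 3 and 59 with these floors, 31 in thinned spots and 61 to 78 with 1 section left out. The other alternatives, which were limits of 3000 and 10000 UMIs, 10 or 3 bins of the spots, totals without mitochondrial and globin genes, quintiles within 4 strata of depth, mean ranks, scores without Cyp2e1 or without Ass1 and Arg1, and means over spots, left these counts within 1.5 times. With 10 or 3 bins the count of genes lower in the middle quintile was not made. No called gene changed the sign of its mean log2 fold under any of these alternatives. Of 122 called genes measured in nuclei, 85 (69.7%) had the same direction in all 4 libraries. With a floor of 50 UMIs in nuclei this became 68 of 89 (76.4%). With nuclei of at least 500 UMIs it became 87 of 137 (63.5%). The number measured changed with the limit, and the shares over the other nuclei limits ranged from 63.5% to 78.4%. With 1 library left out only the remaining ones had to agree. The count was then 102 of 128 (79.7%) without DA-1, and 86 or 87 without any other library. No test was made, paired or unpaired, and both ends were always compared within a section. Depth limits genes below the floor, of which the text gives UMIs or shares of spots only.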
